A study of Bombyx mori with 9 samples.

Results

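The genes described here belong to 3 enzyme families that modify small foreign and internal molecules: the cytochrome P450s (P450), the glutathione S-transferases (GST) and the UDP-glycosyltransferases (UGT). They were chosen by name, as every gene of the count table whose symbol began with Cyp and a digit, with GST or with UGT, ignoring case. This gave 97 of 16674 genes, of which 39 were P450, 19 were GST and 39 were UGT genes. Symbols are given as the count table spells them. All 97 were found under the same symbol in the RefSeq gene list of Bombyx mori. That list gives a P450, GST or UGT name as a synonym for at least 7 further genes of the table, which the choice by symbol left out and which are described apart.

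P450s are membrane-bound, heme-containing enzymes that insert an oxygen atom into their substrate. Insect P450s divide into those that break down plant compounds and insecticides and those that build or inactivate hormones, among them the enzymes that make the molting hormone ecdysone in the prothoracic gland. GSTs join glutathione to reactive compounds or reduce peroxides with it, and UGTs attach a sugar to a small molecule, which makes it easier to store or excrete. In silkworms, sugar conjugation of flavonoids from mulberry leaves takes place in the gut and other tissues, and flavonoid glucosides reach the silk gland and colour some cocoons. The fat body and midgut are the tissues best known for high levels of these enzymes in insects.

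The silk gland is the paired larval organ that makes fibroin and sericin, the proteins of silk. The RNA-seq libraries analysed here came from whole silk glands of single larvae of 3 Philippine silkworm strains, collected on day 3 of instar 5, with 3 larvae per strain. MO204 and DMMMSU119 were reared at the warmer site, Misamis Oriental (TCMO), and LAT51 at the cooler site in Benguet (CAR). MO204 and LAT51 were priority strains of the rearing centres, and DMMMSU119 was a poorly performing strain. Every LAT51 larva came from CAR and no other strain did, so strain and site cannot be told apart for LAT51. Libraries are named by strain and replicate number, with DMMMSU short for DMMMSU119.

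Total counts on genes ranged from 4527847 to 11641130 per library. TMM scaling factors, which set the libraries to a common level of the typical gene, were 0.42 to 0.59 in DMMMSU119 and 1.26 to 1.53 in the other strains. The 8 silk gland markers, fibroins and sericins among them, took 24.4 to 36.0% of counts in DMMMSU119 and 12.3 to 19.6% in the others. Ubx, 1 of the 8, had no count in 7 libraries. Of the 7 tested, 5 were lower and 1, the sericin Ser2, was higher in LAT51 than in DMMMSU119 by the test described below. In MO204, 5 were lower and 0 higher. Levels are given as CPM, which are counts scaled by the library total multiplied by its TMM factor, not by the total alone. The fat body markers were Sp1, Sp2, VG, Lp-c6 and Lp-c12. These 5 summed to 11.9 to 91.0 CPM in LAT51, 33.0 to 319 in MO204 and 1549 to 49940 in DMMMSU119. As a share of counts they took 0.0015 to 0.0139% in LAT51, 0.00503 to 0.0424% in MO204 and 0.0887 to 2.94% in DMMMSU119. Of these 5, 4 were lower in LAT51 and 3 lower in MO204 than in DMMMSU119 by the test described below. VG, the yolk protein precursor, was at 0 in MO204-4 and DMMMSU-4 and did not exceed 9.81 CPM. The 2 muscle actins A1 and A2 summed to 7739 CPM in DMMMSU-0 and to at most 399 elsewhere. The 3 midgut aminopeptidases were at 0 in every MO204 library and in DMMMSU-4 and reached 22.7 CPM in DMMMSU-0. The 2 hemocyte markers summed to 5.59 to 14.0 CPM. In whole glands, fewer cells of a type and less RNA per cell cannot be told apart.

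Of the 97 genes, 87 had at least 1 count in some library and 30 had counts in all 9. The 10 without a count were 5 P450s (Cyp307a1, CYP338A1, CYP337A2, Cyp6au1 and Cyp6ae22) and 5 UGTs (UGT33N1, UGT340C1, UGT340C2, UGT33D3 and UGT33D2). A count of 0 allows up to 3 counts in a library, which was 0.194 CPM in LAT51-2 and 0.841 CPM in DMMMSU-0, so low expression was not detectable at this depth. Intervals and floors cover counting error only. In 51 of the 97 genes no library held more than 10 counts.

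A gene was counted as expressed when its TMM-normalized CPM was at least 1 in at least 3 of the 9 libraries. This held for 40 of the 97 genes, or 41.2%, against 48.1% of all genes in the table. The families differed in this share. Of the GSTs, 14 of 19 were expressed (73.7%), of the UGTs 17 of 39 (43.6%) and of the P450s 9 of 39 (23.1%). At a stricter minimum of 5 CPM the count was 23. All 3 libraries of a strain reached the minimum for 32 genes in DMMMSU119, 22 in MO204 and 21 in LAT51. This count by strain was not made for all genes of the table, so it has no background beside it. It also rests on the TMM scaling, by which 3 counts were 0.841 CPM in DMMMSU-0 and 0.194 CPM in LAT51-2.

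Some subfamilies had no expressed gene. None of the 5 CYP9 genes and none of the 4 genes with a CYP4 symbol was expressed, and of the 10 CYP6 genes, the subfamily best known for breaking down plant toxins and insecticides, 2 were (Cyp6ab5 and CYP6AN2). None of the 3 UGT42 genes and 4 of the 12 UGT33 genes were expressed. All 3 delta GSTs, both sigma and both zeta GSTs, and all 3 UGT41 genes met the minimum. CPM is not corrected for transcript length, so levels are compared below between libraries and not between genes.

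**Figure D1:**
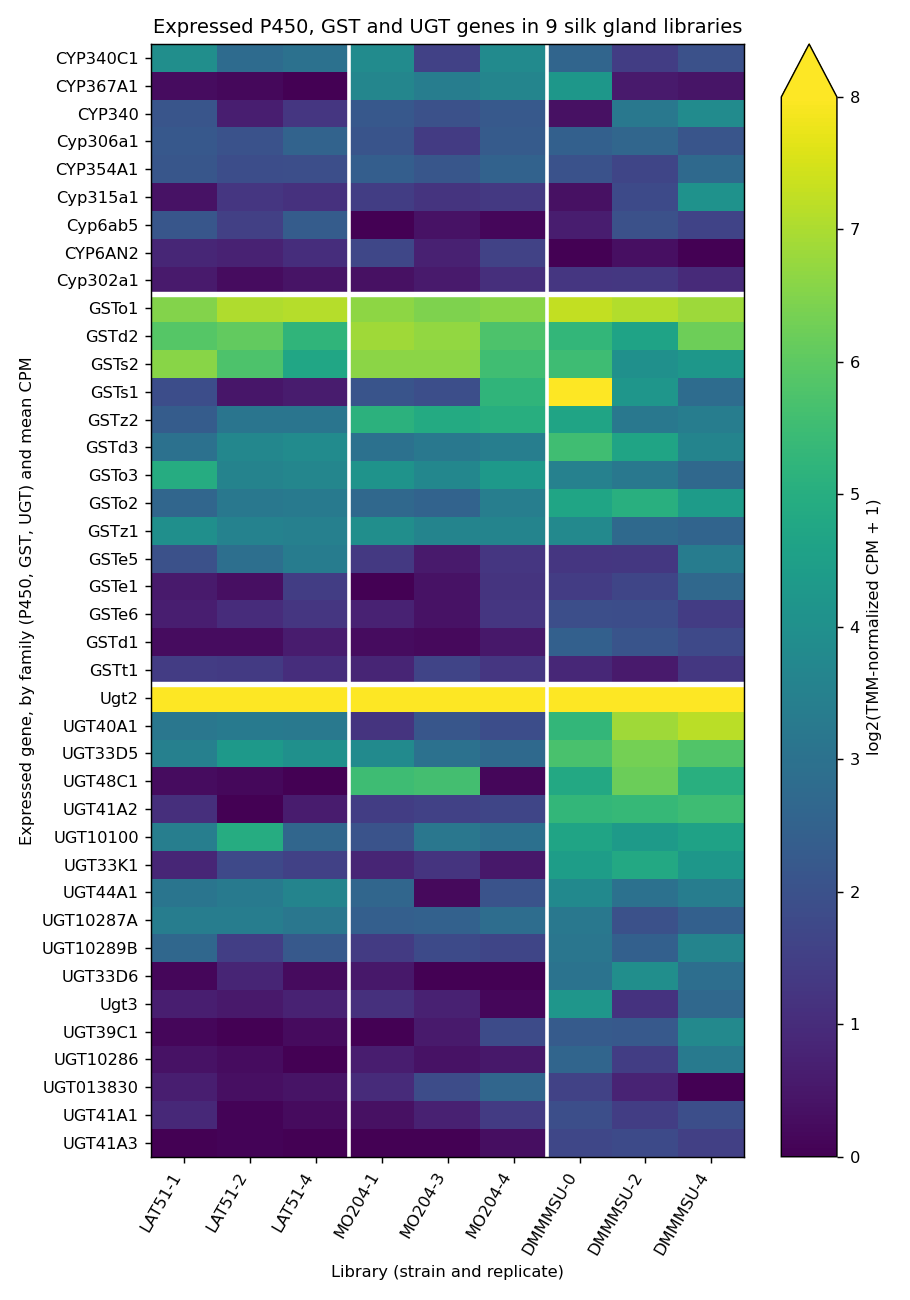
Level of the 40 expressed genes (rows, grouped into P450, GST and UGT and ordered by mean CPM) in the 9 libraries (columns), as log2(TMM-normalized CPM + 1), with the colour scale stopping at 8. Ugt2 in all 9 libraries and GSTs1 in DMMMSU-0 lay above the scale, and many UGT rows are brighter in the DMMMSU119 columns.

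The family sums below cover the 97 genes chosen by symbol. The 39 P450s had few counts in any library and summed to 18.0 to 32.9 CPM in LAT51, 23.6 to 74.4 in MO204 and 40.4 to 65.9 in DMMMSU119. The GSTs summed to 267 to 314 CPM in LAT51, 317 to 394 in MO204 and 281 to 681 in DMMMSU119. The UGTs summed to 1308 to 1872 CPM in LAT51, 1803 to 1984 in MO204 and 1553 to 2323 in DMMMSU119. Ugt2 alone held 95.5 to 97.6% of the UGT counts of each LAT51 and MO204 library and 74.4 to 88.1% in DMMMSU119. Without Ugt2, the other 38 UGTs summed to 55.9 to 83.1 CPM in LAT51, 45.2 to 82.1 in MO204 and 276 to 398 in DMMMSU119. These sums are descriptions and were not tested. Scaled by total counts alone, without TMM factors, the order changed: the UGTs summed to 1999 to 2458 in LAT51, 2502 to 2746 in MO204 and 653 to 1367 in DMMMSU119, without overlap, and the GSTs to 336 to 480, 418 to 601 and 118 to 401. The P450s then summed to 24.0 to 50.2 in LAT51, 31.4 to 97.95 in MO204 and 17 to 38.8 in DMMMSU119. The 38 UGTs other than Ugt2 were highest in DMMMSU119 on this scale too, at 162 to 219 against 71.3 to 111 in LAT51 and 59.5 to 124 in MO204.

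The P450s under other symbols included genes with more counts than these. LOC101743022, listed with the synonym CYP4AX2, read 62.0 to 121 CPM in LAT51, 55.1 to 127 in MO204 and 41.3 to 71.7 in DMMMSU119. This was above the summed CPM of the 39 P450s in every library except DMMMSU-4, with no correction for transcript length. LOC101745427 (synonym CYP4G24) read 9.11 to 42.2 CPM over the 9 libraries. CYP4G enzymes make cuticular hydrocarbons in Drosophila. Neither was called in any comparison. LOC100127115 (synonym CYP4G23) had 118 counts in DMMMSU-0 and none in the other 8 libraries and was not tested, as were LOC100127130 (synonym cyp6u1) and P450 (synonym CYP15C1), with at most 20 and 12 counts. LOC101746194 (synonym gstu) averaged 37.7 ± 13.6, 52.9 ± 9.05 and 10.2 ± 3.94 CPM (SD, n = 3) in LAT51, MO204 and DMMMSU119, and LOC732962 (synonym UGT33D4) averaged 33.8 ± 5.52, 48.7 ± 22.6 and 104 ± 12.4 CPM. By the test described next, LOC101746194 was higher than in DMMMSU119 in LAT51 (log2 fold change 1.88 ± 0.38 (SE), edgeR adjusted p = 0.00947) and in MO204 (2.37 ± 0.39, adjusted p = 0.00614), and LOC732962 was lower in LAT51 (-1.62 ± 0.35, adjusted p = 0.0127) and in MO204 (-1.09 ± 0.35, adjusted p = 0.0499).

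**Figure D2:**
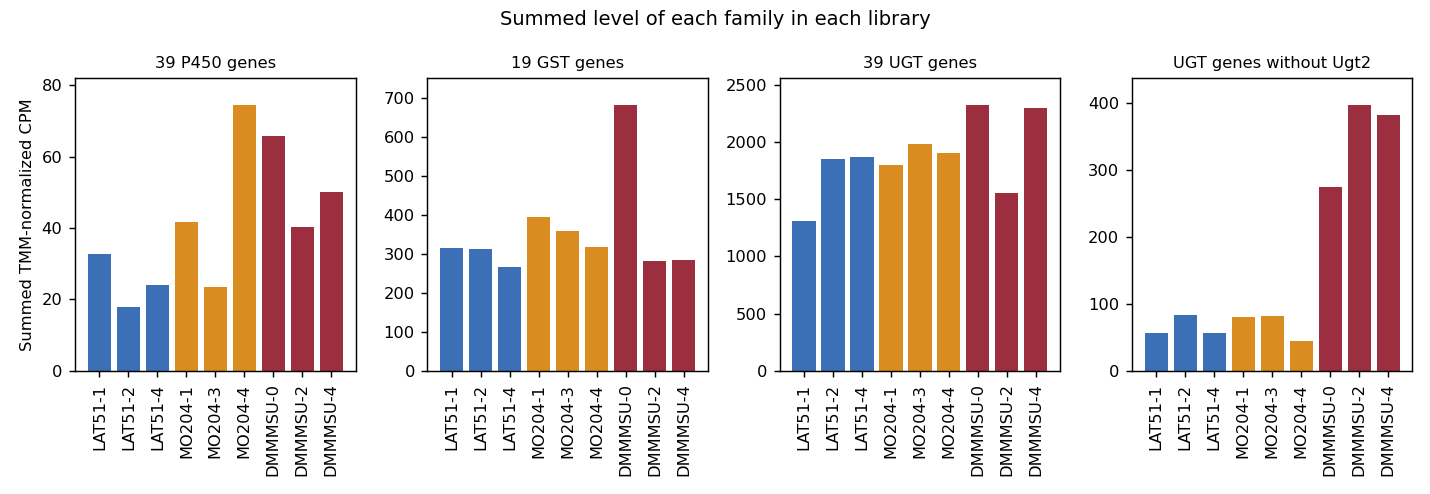
Summed TMM-normalized CPM of the 39 P450, 19 GST and 39 UGT genes and of the 38 UGT genes other than Ugt2, with 1 bar per library (blue LAT51, orange MO204, red DMMMSU119). The DMMMSU119 bars of the last panel, 276 to 398, stand above the 45.2 to 83.1 of the other strains, while the UGT sums with Ugt2 overlap between strains on this TMM scale.

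Strain differences were tested with edgeR's quasi-likelihood test over the 7610 genes that passed a low-count filter, and a gene was called at a Benjamini-Hochberg adjusted p under 0.1. The filter kept 35 of the 97 genes (7 P450, 13 GST and 15 UGT), 36.1% against 45.6% of all genes. A gene high in 1 strain can pass through the libraries of that strain alone, and the direction of its call is then largely set. UGT33D6, with 26, 59 and 35 counts in DMMMSU119 and at most 12 in any other library, passed in this way. UGT39C1 also needed the DMMMSU119 libraries, with 14, 15 and 68 counts there, 23 in MO204-4 and at most 3 elsewhere. Fold changes are on the log2 scale, given as the strain named first minus the strain named second, with the SE, over 3 libraries per strain. For pairs of strains, the p-values measure the spread between single larvae. In the comparison by site, that spread also holds the difference between MO204 and DMMMSU119, which share a site.

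LAT51 against DMMMSU119, which differ in strain and site, gave 16 calls among the 35 genes, or 45.7%, where 38.0% of all tested genes were called. Of these, 15 were lower and 1 was higher in LAT51, and the background shares were 19.8% lower and 18.2% higher. The median log2 fold change was -1.13 over the 35 genes and 0.01 over all tested genes. The libraries of these strains did not overlap for 16 of the 35 genes, or 45.7%, against 40.7% of all tested genes.

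MO204 against DMMMSU119, reared at the same site, gave 15 calls, or 42.9%, against 33.0% of all tested genes. Of these, 13 were lower and 2 higher in MO204, with background shares of 16.7% and 16.3%. The median log2 fold change was -1.51, against 0.03 over all tested genes. The libraries did not overlap for 20 of the 35 genes, or 57.1%, against 41.7%. Both of these comparisons use the same 3 DMMMSU119 libraries, so their calls are not separate evidence.

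LAT51 against MO204 gave 4 calls of 35, or 11.4%, against 3.07% of all tested genes, with 1 higher and 3 lower in LAT51, where the background shares were 1.51% higher and 1.56% lower. Libraries did not overlap for 11 genes, or 31.4%, against 19.5%. Leaving out MO204-1 or any LAT51 library left 0 calls, leaving out MO204-3 left 1 and leaving out MO204-4 left 2. With site as the factor, CAR against TCMO gave 1 call of 35, lower in CAR, or 2.86%, against 1.48% of all tested genes (0.71% higher and 0.775% lower). Libraries of the sites did not overlap for 4 genes, or 11.4%, against 8.67%. Among the 35 genes 7 had an unadjusted p under 0.05 in this comparison, where 15.7% of all tested genes had one.

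The direction of calls against DMMMSU119 rested on the scaling. With library size alone in place of TMM factors, the median log2 fold change of all tested genes moved to 1.39 for LAT51 and 1.42 for MO204 against DMMMSU119. The calls then split into 13 higher and 9 lower for LAT51, and 13 higher and 7 lower for MO204, and those of all genes into 5087 higher and 571 lower, and 5162 higher and 380 lower. All differences from DMMMSU119 given here are therefore relative to the typical gene of each library. DESeq2 size factors gave the same splits of 1 higher and 15 lower, and 2 higher and 13 lower, as TMM. Lower calls in both strains were also made with library size alone for UGT33K1, UGT33D6, UGT40A1, UGT41A2 and Ugt3. Those of GSTo2 and GSTd3 in both strains and of GSTz2, UGT33D5, UGT41A1 and Cyp315a1 in LAT51 were not. The lower calls of UGT10100, UGT10289B, UGT39C1 and GSTe6 in MO204 were not made with it either.

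**Figure D3:**
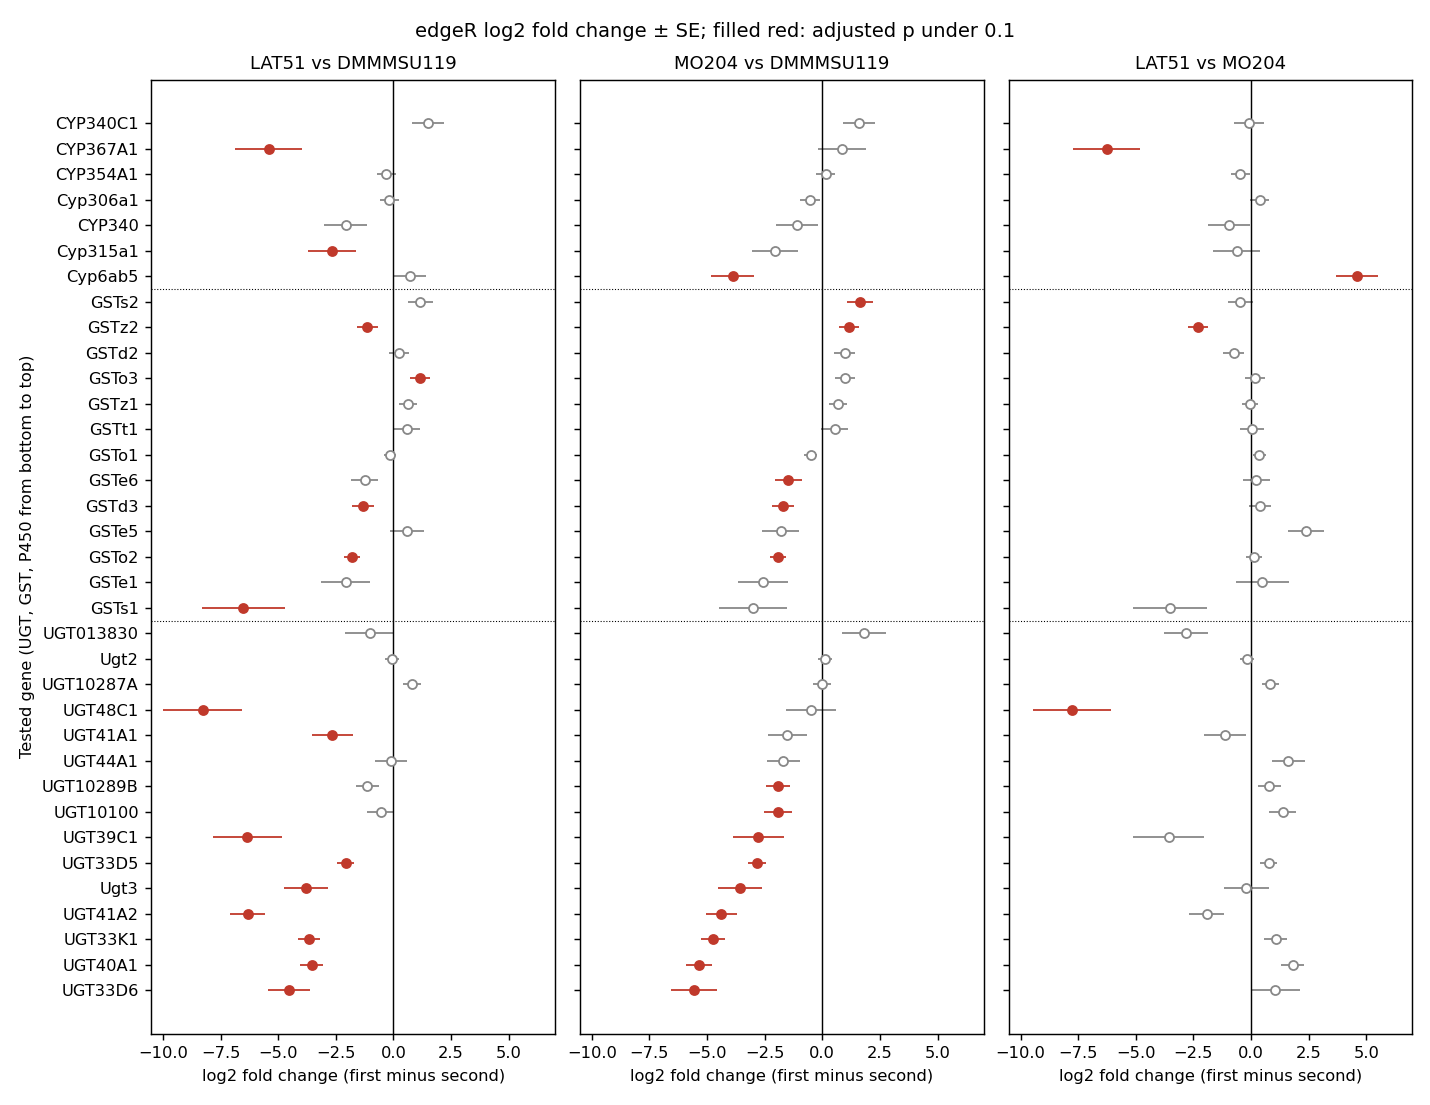
edgeR log2 fold change (point) and SE (bar) of the 35 tested genes in LAT51 vs DMMMSU119, MO204 vs DMMMSU119 and LAT51 vs MO204, grouped into P450, GST and UGT from top to bottom, with filled red points at an adjusted p under 0.1. UGT calls against DMMMSU119 all lie left of 0, 9 in each of these comparisons, and LAT51 vs MO204 holds 4 filled points.

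Of the 15 tested UGTs, 9 (60%) were called lower in LAT51 and 9 in MO204 than in DMMMSU119. Of all tested genes, 19.8% and 16.7% were called lower, and 0 UGTs were called higher in either comparison. UGT33D6 and UGT39C1 are among the 9 in each comparison and passed the filter through their DMMMSU119 counts. The families were not compared with each other by a test. Their median log2 fold change was -2.65 in LAT51 and -1.93 in MO204. Of the 4 tested UGT33 genes, 3 were called in each comparison. Of the 5 tested UGT40 genes, 2 were called in LAT51 and 4 in MO204. UGT33D5, UGT33D6, UGT33K1, UGT39C1, UGT40A1, UGT41A2, Ugt3, GSTd3 and GSTo2 were called lower in each comparison with the shared DMMMSU119 libraries.

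UGT40A1 stood at 7.99, 8.91 and 8.41 CPM in LAT51, at 1.28, 3.42 and 2.74 in MO204, and at 38.7, 114 and 144 in DMMMSU119. The strains did not overlap, with DMMMSU119 highest and MO204 lowest. The log2 fold change was -5.35 ± 0.57 (SE) for MO204 against DMMMSU119 (edgeR adjusted p = 0.00141), a 40.8-fold difference. For LAT51 against DMMMSU119 it was -3.55 ± 0.51 (adjusted p = 0.00266). LAT51 against MO204 gave 1.80 ± 0.51 and was not called (adjusted p = 0.135).

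UGT41A2 read 1.1, 0 and 0.525 CPM in LAT51, 1.71, 1.95 and 2.19 in MO204 and 38.4, 40.2 and 44.6 in DMMMSU119. The DMMMSU119 libraries lay close together and far above the rest. This was a log2 fold change of -6.33 ± 0.78 for LAT51 (edgeR adjusted p = 0.0015) and -4.39 ± 0.68 for MO204 (adjusted p = 0.00498). Without LAT51-1, which held 11 of the 14 LAT51 counts, the first value was -7.78, and without LAT51-2 it was -5.55. Its neighbours UGT41A1 and UGT41A3 are from the same run of UGT41 genes in the RefSeq gene order. UGT41A1 averaged 0.379 ± 0.453 CPM (SD, n = 3) in LAT51, 0.859 ± 0.702 in MO204 and 2.43 ± 0.61 in DMMMSU119. It was called lower in LAT51 alone (log2 fold change -2.65 ± 0.90, adjusted p = 0.0532). That call was lost without DMMMSU-0, DMMMSU-4, LAT51-2 or LAT51-4, with log2 fold changes of -2.52, -2.52, -2.03 and -2.41, and without LAT51-1 the value was -4.36. UGT41A3 had 8, 10 and 10 counts in DMMMSU119 and at most 2 elsewhere, and did not pass the filter.

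UGT33K1 read 0.799, 2.39 and 1.93 CPM in LAT51, 0.783, 1.3 and 0.438 in MO204, and 21.0, 27.6 and 17.9 in DMMMSU119. It was lower by 3.68 ± 0.48 on the log2 scale in LAT51 (12.8-fold, edgeR adjusted p = 0.00191) and by 4.74 ± 0.52 in MO204 (26.8-fold, adjusted p = 0.00144). UGT33D5 read 10.2, 18.6 and 15.2 CPM in LAT51, 13.2, 6.83 and 5.69 in MO204 and 51.3, 79.3 and 55.5 in DMMMSU119. No library of the other strains reached the lowest DMMMSU119 library of either gene. For UGT33D5 the log2 fold change was -2.08 ± 0.38 in LAT51 (adjusted p = 0.00669) and -2.84 ± 0.40 in MO204 (adjusted p = 0.00327).

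UGT33D6 lies next to UGT33D5 in a run of 10 UGT33 and UGT340 genes. It had 1, 12 and 1 counts in LAT51, 6, 0 and 0 in MO204 and 26, 59 and 35 in DMMMSU119. Its log2 fold change was -4.52 ± 0.92 for LAT51 (edgeR adjusted p = 0.00967) and -5.57 ± 0.998 for MO204 (adjusted p = 0.00843). The libraries of DMMMSU119 lay above all others, but the size depended on few counts: without LAT51-2 the value was -5.98, and without MO204-1, which held every MO204 count, it was -9.12. UGT013830, listed in RefSeq with the synonym UGT33D1 and part of the same run, did not share this pattern. It averaged 0.403 ± 0.176 CPM in LAT51, 2.95 ± 2.15 in MO204 and 0.900 ± 0.991 in DMMMSU119, and no pair was called. How reads shared by near-identical genes of this run were counted is not given in the sources used here, so the split between its members is uncertain.

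Ugt3 had 6, 7 and 4 counts in LAT51, 16, 4 and 1 in MO204 and 62, 5 and 30 in DMMMSU119. DMMMSU-2, at 1.23 CPM, was close to the MO204-1 value of 1.14. Its log2 fold change was -3.78 ± 0.96 for LAT51 (edgeR adjusted p = 0.0201) and -3.57 ± 0.94 for MO204 (adjusted p = 0.028). Without DMMMSU-0 these values were -2.54 and -2.34, and without MO204-1 the MO204 value was -4.43. UGT10289B, which overlaps Ugt3 in the RefSeq gene list, averaged 3.63 ± 1.79 CPM in LAT51, 2.09 ± 0.41 in MO204 and 7.84 ± 3.41 in DMMMSU119. It was lower in MO204 (log2 fold change -1.92 ± 0.51, adjusted p = 0.0281), and without MO204-1 the value was -1.74 and the adjusted p was 0.109. The study counted a read only if it touched no other gene, and whether strand was used is not given in the sources used here, so reads from shared stretches may be missing from both genes.

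UGT10100, the next gene in that run, read 9.78, 30 and 5.25 CPM in LAT51, 3.13, 7.97 and 6.68 in MO204 and 24.4, 19.5 and 23.2 in DMMMSU119. LAT51-2 lay above every DMMMSU119 library, and the MO204 libraries lay below them. MO204 against DMMMSU119 gave a log2 fold change of -1.93 ± 0.60 (edgeR adjusted p = 0.0454), and without MO204-1 it was -1.59 with an adjusted p of 0.156. UGT39C1 had 1, 0 and 1 counts in LAT51, 0, 3 and 23 in MO204 and 14, 15 and 68 in DMMMSU119. With 2 counts in LAT51, the ratio of DMMMSU119 to LAT51 counts, pooled by strain and scaled by TMM library size, was 116. Its 95% counting interval was 31.3 to 971. Its log2 fold change was -6.34 ± 1.48 in LAT51 (adjusted p = 0.0157), and -5.48, -5.51 and -6.97 without DMMMSU-4, LAT51-2 and LAT51-4. In MO204 it was -2.77 ± 1.11 (adjusted p = 0.0984). Leaving out any library other than MO204-4 ended the MO204 call, with -1.92 without DMMMSU-4 and -2.10 without MO204-1, and without MO204-4 the value was -5.11.

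UGT48C1 set LAT51 apart from the strains of the other site, with 1 exception. It had 2, 2 and 0 counts in LAT51, 631, 293 and 1 in MO204 and 97, 295 and 175 in DMMMSU119. In CPM these were at most 0.20 in LAT51, then 44.9, 47.6 and 0.11 in MO204 and 27.2, 72.7 and 32.3 in DMMMSU119. MO204-4 was as low as LAT51, so the MO204 libraries split and overlapped LAT51. The log2 fold change was -8.28 ± 1.70 for LAT51 against DMMMSU119 (edgeR adjusted p = 0.0101), -7.77 ± 1.68 for LAT51 against MO204 (adjusted p = 0.0537) and -8.06 ± 1.65 for CAR against TCMO (adjusted p = 0.0649). The last was the 1 call with site as the factor. The call against MO204 was lost without MO204-1, MO204-3 or any LAT51 library, at log2 fold changes of -7.38, -7.33, -8.18, -7.78 and -7.46, and without MO204-4 the value was -8.36. The call by site was lost without MO204-3, any DMMMSU119 library or any LAT51 library, with values from -8.47 to -7.76 and adjusted p from 0.101 to 0.403.

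Ugt2, the UGT with by far the most counts (4688 to 27328 per library), did not differ beyond its spread on the TMM scale. It read 1252, 1764 and 1815 CPM in LAT51, 1721, 1902 and 1856 in MO204 and 2047, 1155 and 1917 in DMMMSU119. The strains overlapped, with the lowest value in DMMMSU-2. The log2 fold change was -0.08 ± 0.31 for LAT51 and 0.10 ± 0.31 for MO204 against DMMMSU119 (edgeR adjusted p = 0.861 and 0.843). UGT10286, a quercetin 5-O-glucosyltransferase of silkworm cocoon colour, had 18, 7 and 47 counts in DMMMSU119 and at most 8 elsewhere, and did not pass the filter. UGT44A1 had 1 count in MO204-3 against 28 to 134 in the other 8 libraries, and was called in no pair. Both of these were chosen after their values were seen.

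**Figure D4:**
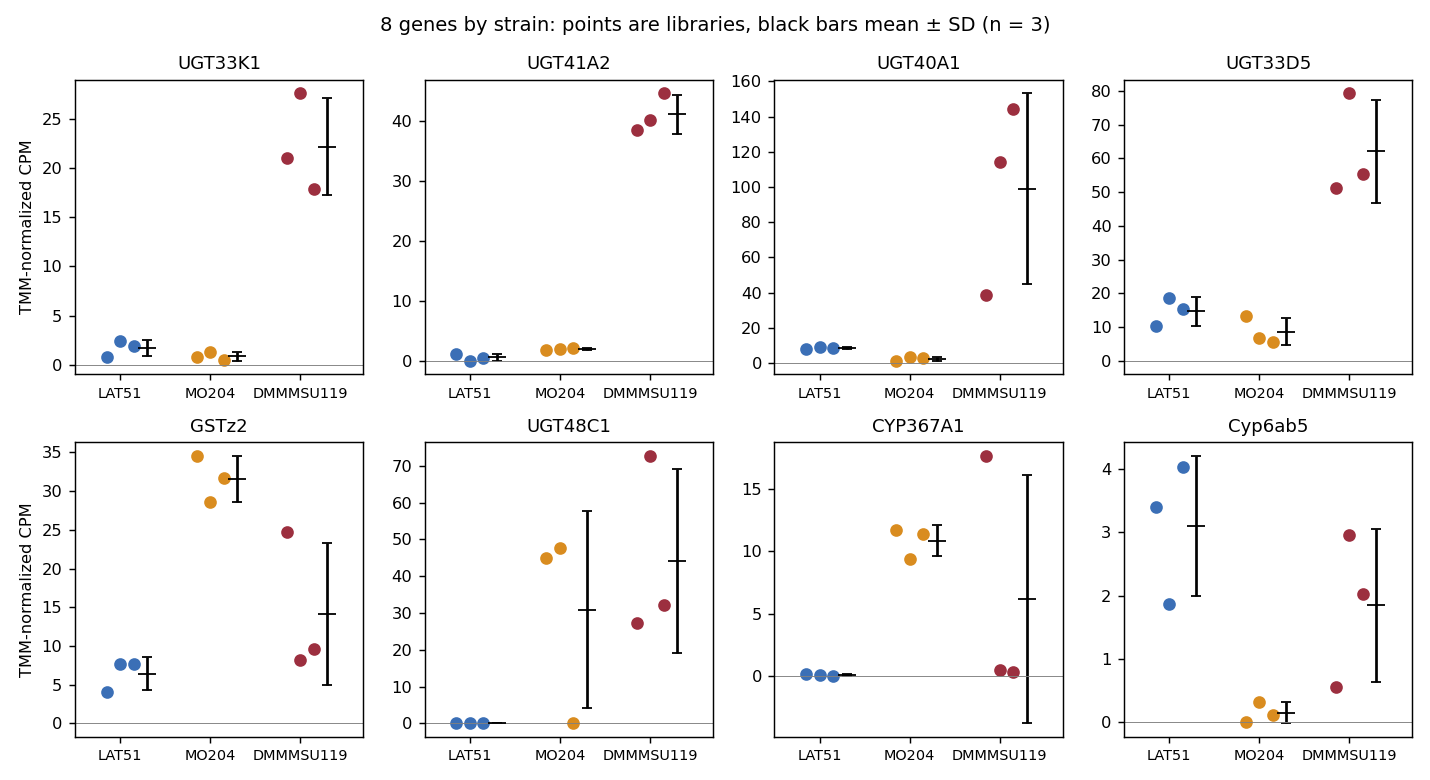
TMM-normalized CPM of 8 genes in LAT51, MO204 and DMMMSU119, with 1 point per library and the mean ± SD (n = 3) in black. UGT33K1, UGT41A2, UGT40A1 and UGT33D5 are high in all 3 DMMMSU119 libraries, UGT48C1 is near 0 in LAT51 and in MO204-4, and CYP367A1 is high in DMMMSU-0 alone of its strain.

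Against DMMMSU119, 4 of 13 tested GSTs were lower and 1 higher in LAT51, and 3 were lower and 2 higher in MO204. The share called was 38.5% in each comparison, near the 38.0% and 33.0% of all tested genes. The omega GSTs, which reduce dehydroascorbate and carry cysteine at their active site, differed among themselves. GSTo1 read 90.8, 132 and 138 CPM in LAT51, 98.5, 87.3 and 94.4 in MO204 and 152, 134 and 113 in DMMMSU119, and no pair was called. GSTo2, its neighbour in the genome, read 5.19, 8.20 and 8.93 in LAT51, 5.55, 4.88 and 9.74 in MO204 and 25.2, 32.3 and 19.9 in DMMMSU119. The DMMMSU119 libraries of GSTo2 lay above all others, with log2 fold changes of -1.79 ± 0.36 for LAT51 (edgeR adjusted p = 0.00894) and -1.93 ± 0.36 for MO204 (adjusted p = 0.00941). GSTo3 went the other way, at 17.6 ± 10.9 CPM in LAT51, 15.6 ± 3.3 in MO204 and 8.01 ± 2.42 in DMMMSU119. It was higher in LAT51 by 1.14 ± 0.44 on the log2 scale (adjusted p = 0.0793). Without LAT51-1, at 30.2 CPM its highest library, this was 0.53 with an adjusted p of 0.29. The call was also lost without MO204-1, DMMMSU-2 or DMMMSU-4, at 1.16, 1.17 and 0.95.

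GSTz2, of the zeta class that takes part in tyrosine breakdown, was the gene called in all 3 pairs of strains. It read 3.99, 7.62 and 7.71 CPM in LAT51, 34.5, 28.6 and 31.6 in MO204 and 24.7, 8.13 and 9.59 in DMMMSU119. MO204 was above the other strains and LAT51 below, and DMMMSU-0 lay near MO204. The log2 fold change was -2.30 ± 0.44 for LAT51 against MO204 (4.91-fold, edgeR adjusted p = 0.0363), 1.17 ± 0.43 for MO204 against DMMMSU119 (adjusted p = 0.0777) and -1.13 ± 0.44 for LAT51 against DMMMSU119 (adjusted p = 0.0822). Without DMMMSU-0 the last 2 were 1.86 and -0.44, the second of these with an adjusted p of 0.349. With library size alone the LAT51 against DMMMSU119 value was 0.17, where all genes shifted by 1.39. The LAT51 against DMMMSU119 call was lost without any library other than DMMMSU-2 and DMMMSU-4, and the MO204 against DMMMSU119 call without any MO204 library, DMMMSU-2, DMMMSU-4 or LAT51-2, at 0.91 to 1.26. The LAT51 against MO204 call was lost without MO204-1, MO204-3 or any LAT51 library, at -2.44 to -2.04. GSTz1, its class partner, averaged 11.9 ± 2.5, 12.3 ± 1.8 and 7.75 ± 4.22 CPM in LAT51, MO204 and DMMMSU119 and was not called.

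The sigma GSTs, a class that acts on products of lipid peroxidation in Drosophila, are neighbours in the genome. GSTs1 read 2.7, 0.387 and 0.525 CPM in LAT51, 3.20, 2.76 and 36.3 in MO204 and 314, 17.5 and 6.08 in DMMMSU119. DMMMSU-0 held 81.9% of the CPM summed over the 9 libraries. GSTs1 was lower in LAT51 than in DMMMSU119 by 6.52 ± 1.79 on the log2 scale (edgeR adjusted p = 0.0266), with -3.23 without DMMMSU-0, -7.93 without LAT51-1 and -6.01 without LAT51-2, where the adjusted p was 0.103. GSTs2 read 94.4, 53.0 and 25.8 CPM in LAT51, 96.9, 97.1 and 45.4 in MO204 and 44.6, 15.0 and 17.9 in DMMMSU119. It was higher in MO204 than in DMMMSU119, by 1.63 ± 0.57 (adjusted p = 0.0661), although MO204-4 exceeded DMMMSU-0 by less than 1 CPM. Without DMMMSU-0 this was 2.30, and without MO204-1, MO204-3, DMMMSU-2 or DMMMSU-4 the call was lost, at 1.49, 1.5, 1.37 and 1.44.

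Delta and epsilon GSTs are the classes tied to insecticide tolerance in insects. GSTd3 averaged 10.8 ± 3.4 CPM in LAT51, 8.25 ± 1.4 in MO204 and 27.2 ± 17.4 in DMMMSU119, where the libraries read 45.7, 24.6 and 11.2. DMMMSU-4 overlapped LAT51. On the log2 scale GSTd3 changed by -1.71 ± 0.47 for MO204 (edgeR adjusted p = 0.0329) and -1.33 ± 0.47 for LAT51 (adjusted p = 0.0607). Without DMMMSU-0 these were -1.09 and -0.70, and without MO204-1 the MO204 call was lost at -1.57. The LAT51 call was lost without DMMMSU-0, DMMMSU-2, LAT51-1 or LAT51-2, the last 3 at -1.38, -1.06 and -1.39, and with library size alone its value was 0.01.

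GSTd2, which overlaps GSTd3, averaged 54.0 ± 15.6, 90.7 ± 32.3 and 45.8 ± 26.1 CPM in LAT51, MO204 and DMMMSU119, and was called in no pair. GSTd1 had 2, 3 and 3 counts in LAT51, 3, 1 and 4 in MO204 and 16, 13 and 13 in DMMMSU119, so the DMMMSU119 libraries lay above the others, but it did not pass the filter. Of the 6 epsilon GSTs, 3 were tested. GSTe6 was lower in MO204 than in DMMMSU119 (log2 fold change -1.48 ± 0.58, edgeR adjusted p = 0.0936) on 2 to 13 counts per library, and leaving out any library other than MO204-4 ended the call, at -1.69 to -1.13. GSTe5, at 6.27 ± 3.15 CPM in LAT51 and 1.14 ± 0.56 in MO204, was not called (adjusted p = 0.205).

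Among P450s, 3 of the 7 tested genes were called in some pair. Against DMMMSU119, 2 (28.6%) were called in LAT51 and 1 (14.3%) in MO204, where 38.0% and 33.0% of all tested genes were. Between LAT51 and MO204, 2 (28.6%) were called, against 3.07% of all tested genes. CYP367A1 had 2, 2 and 0 counts in LAT51, 165, 58 and 104 in MO204 and 63, 2 and 2 in DMMMSU119. All MO204 libraries were high, at 9.43 to 11.8 CPM, while DMMMSU119 split into 17.7 CPM in DMMMSU-0 and at most 0.49 in the others. LAT51 against MO204 gave a log2 fold change of -6.27 ± 1.46 (edgeR adjusted p = 0.0686), and of LAT51 against DMMMSU119 -5.42 ± 1.47 (adjusted p = 0.0251). Without DMMMSU-0 the second was -1.63 with an adjusted p of 0.206. The call against MO204 was lost without any single MO204 or LAT51 library, at -6.70 to -5.96 and adjusted p of 0.133 to 0.288. MO204 against DMMMSU119 gave 0.85 ± 1.06 and was not called.

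Cyp6ab5, of the CYP6 family, had 34, 29 and 23 counts in LAT51, 0, 2 and 1 in MO204 and 2, 12 and 11 in DMMMSU119. MO204 was below every other library. With 3 counts in MO204, ratios to MO204 were taken on counts pooled by strain and scaled by TMM library size. They were 26.9 for LAT51 (95% counting interval 8.91 to 133) and 18.7 for DMMMSU119 (5.71 to 96.9). The log2 fold change was 4.59 ± 0.91 for LAT51 against MO204 (edgeR adjusted p = 0.0409) and -3.89 ± 0.95 for MO204 against DMMMSU119 (adjusted p = 0.022). The first call was lost without MO204-1, MO204-4 or any LAT51 library, at 3.81, 4.56, 4.48, 4.82 and 4.35, and without MO204-3 the values were 5.68 and -4.94. Without MO204-1 the second was -3.08.

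The P450s that make or inactivate ecdysone were at low levels. Cyp307a1 had no count, Cyp314a1, which makes 20-hydroxyecdysone in target tissues, had 1 count in all, and Cyp18a1, which inactivates it, had at most 6 counts in a library. Cyp306a1 averaged 3.84 ± 0.96 CPM in LAT51, 2.92 ± 1.18 in MO204 and 4.33 ± 0.94 in DMMMSU119, and Cyp302a1 had 2 to 10 counts per library. Cyp315a1 had 3, 22 and 7 counts in LAT51, 24, 8 and 14 in MO204 and 1, 10 and 87 in DMMMSU119. DMMMSU-4 stood above every other library, and DMMMSU-0 was among the lowest. It was called lower in LAT51 than in DMMMSU119 (log2 fold change -2.68 ± 1.04, edgeR adjusted p = 0.0811), and without DMMMSU-4 the value was -0.48 with an adjusted p of 0.727. The call was also lost without MO204-1, MO204-3 or any LAT51 library, at -3.10 to -2.21. Cyp315a1 overlaps 2 other genes in the RefSeq gene list.

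Among the P450s called in no pair, CYP340C1 read 14.5, 6.0 and 6.83 CPM in LAT51, 13.5, 1.95 and 13.4 in MO204 and 5.04, 1.73 and 2.95 in DMMMSU119. MO204 overlapped both other strains. CYP340 averaged 1.76 ± 1.39 CPM in LAT51, 3.43 ± 0.44 in MO204 and 7.29 ± 6.63 in DMMMSU119. CYP6AN2, expressed but not tested, had 6 to 11 counts in LAT51, 4 to 32 in MO204 and 0, 1 and 0 in DMMMSU119.

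Several P450s had nearly all their counts in 1 library. Cyp339a1 had 216 counts in MO204-4, 1 in LAT51-1, 1 in LAT51-4 and none in the other 6 libraries. CYP49A1, like Cyp339a1 of the mitochondrial P450 clan, had 25 counts in MO204-4 and at most 1 elsewhere. Cyp6ae2 had 22 counts in DMMMSU-0 and at most 1 elsewhere, and its neighbour cyp6a8, chosen after its values were seen, had 17 there and at most 3 elsewhere. These 4 genes did not meet the expression minimum and were not tested. The other 2 larvae of the same strain had at most 3 counts of each.

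The summed fat body markers moved with the strain difference that the UGTs showed, and their part in it was not tested. The sum was 1549 CPM in DMMMSU-4, 14525 in DMMMSU-2 and 49940 in DMMMSU-0. VG went the other way, with log2 fold changes of 2.87 in LAT51 and 2.09 in MO204 against DMMMSU119. Neither was called. Of the 19 genes called higher in DMMMSU119 than in at least 1 other strain, 8 were highest in DMMMSU-0, 6 in DMMMSU-2 and 5 in DMMMSU-4. UGT40A1 was 144 CPM in DMMMSU-4, where the marker sum was lowest of the strain, and 38.7 in DMMMSU-0, where it was highest. UGT41A2 read 44.6 and 38.4 CPM in the same libraries. GSTs1, CYP367A1, Ugt3 and GSTd3 were highest in DMMMSU-0. When DMMMSU-0 was left out, 18 genes were called for LAT51 (5 higher, 13 lower) and 21 for MO204 (6 higher, 15 lower) against DMMMSU119. Of these, 12 and 13 were among the calls made with all libraries. This fit tested 37 of the genes. The share of all tested genes called in it is not given here, so these counts have no background beside them.

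**Figure D5:**
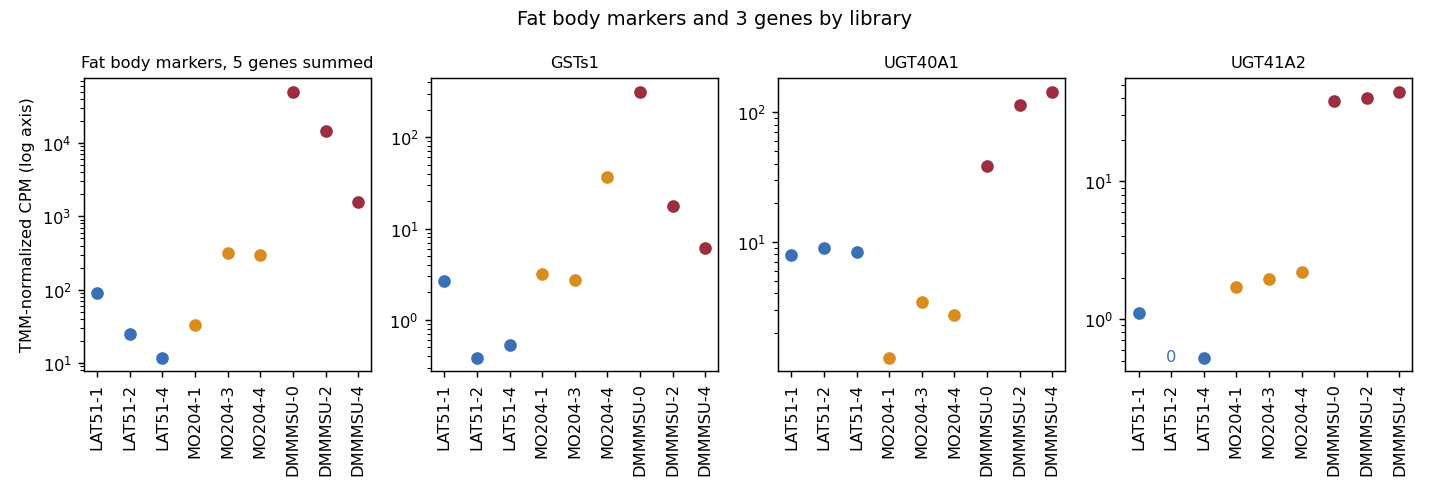
TMM-normalized CPM on log axes of the 5 fat body markers summed, GSTs1, UGT40A1 and UGT41A2, with 1 point per library (blue LAT51, orange MO204, red DMMMSU119) and a 0 where no count was found. From DMMMSU-0 to DMMMSU-4 the marker sum goes from 49940 to 1549 and GSTs1 from 314 to 6.08, while UGT40A1 goes from 38.7 to 144.

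Neighbouring genes shared a pattern in some runs and not in others. By RefSeq gene order, 55 of the 97 genes lay in 17 runs with at most 2 other genes between neighbours. UGT33D5 and UGT33D6 were called in the same comparisons, and GSTe1 and GSTe5, the tested genes of their run, in none. GSTs1 was called higher in DMMMSU119 than in LAT51, and GSTs2, next to it, lower in DMMMSU119 than in MO204. GSTo2 was called against both strains and GSTo1 in no pair. In the run of 7 UGT40 genes, Ugt3 was called against both strains, UGT10289B and UGT10100 against MO204, and UGT10287A in no pair. Of the 35 tested genes, 17 overlap another annotated gene, and 13 of these were among the called genes. Of all 35, 14 were called in no pair. Overlap was not counted for the other genes of the table, and whether it goes with calls was not tested.

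Other detoxification and hormone genes were read beside the 3 families. These were 40 genes in 8 lists, of which 26 were tested, and 1 list held the 7 family genes under other symbols. None was called between LAT51 and MO204 or by site. Against DMMMSU119, 2 were higher and 9 lower in LAT51, and 1 was higher and 10 lower in MO204, or 42.3% called in each, against 38.0% and 33.0% of all tested genes. Cpr, the reductase that passes electrons to P450s, averaged 31.4, 44.8 and 22.5 CPM in LAT51, MO204 and DMMMSU119 and was not called. Catalase (Cat) averaged 20.7, 19.2 and 128 CPM and was lower in LAT51 (log2 fold change -2.62, edgeR adjusted p = 0.0157) and in MO204 (-2.73, adjusted p = 0.0174), while the superoxide dismutases SOD and Sod2 and the peroxidase Gpx were not called. Both subunits of the ecdysone receptor, EcR and USP, were lower in both strains than in DMMMSU119, by 1.20 to 1.35 on the log2 scale. Of 8 tested carboxylesterases, which cleave ester bonds in pesticides and hormones, 2 were lower and 1 higher in LAT51, and 3 lower in MO204, or 37.5% called in each. Jheh-lp2, an epoxide hydrolase-like gene, was lower in MO204 (log2 fold change -2.98, adjusted p = 0.0133), and Jheh2, which cleaves the epoxide of juvenile hormone, in LAT51 (-1.55, adjusted p = 0.046).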

How the data were processed

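The 9 silk gland libraries analysed here, 3 per strain, were made with a stranded kit after mRNA enrichment. Another strain that was sequenced is not analysed here. Per the submitters' processing notes and the study's methods, fastp 0.20.0 cleaned the reads together with Trimmomatic 0.39, HISAT2 2.1.0 aligned them, and featureCounts 1.4.6-p5 counted them per gene. The deposited counts were raw and not pooled, and a read that touched more than 1 gene was not counted. The build behind these counts and the strand and multi-mapping settings of the counting are not given in the sources used here. The authors also deposited log2 values, which equal log2(count divided by a DESeq2 size factor, plus 1) and entered 1 alternative. DESeq2 1.30.1 was used by the authors.

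Counts were tested with edgeR 4.0.16 in R 4.3.3 (filterByExpr, TMM, glmQLFit, glmQLFTest) over 7610 genes, with 1 mean per strain over all 9 libraries, or with site as the only factor, and Benjamini-Hochberg adjustment. The SE was the log2 fold change divided by the root of the F statistic. Fits were tested on simulated data. The alternatives were filters, scalings, DESeq2 1.42.0, limma 3.58.1, a block on replicate number and fits without 1 library each. Genes given with values were the 3 of each family with the highest mean CPM, those called in any comparison (at most 12 each), those with at most 3 counts in each library of a strain and at least 10 in each of another, and those with over 80% of the CPM in 1 library of at least 20 counts. The remaining called genes and some neighbours, class partners and low-count genes were added after their values were seen. The genes and lists were chosen with earlier results of these data known. No sequences were available to print, so sequence identity was not computed. A correlation between genes was not given, since the strains fall into separate clusters.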

Additional observations from a re-analysis of the deposited data

Results flagged for a closer look

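Among the 6 TCMO libraries, the levels of 27 genes were examined for a library far from the rest by Dixon's test at the 95% level, which flags about 1 in 20 groups by chance. These 6 libraries mix 2 strains, so a strain difference can add to a gap. For 7 genes the highest or lowest library stood apart. The chance rate does not apply to 4 of them (GSTs1, CYP49A1, Cyp6ae2 and Cyp339a1), which were among the 27 because 1 library held most of their CPM. Nor does it apply to Ugt3 and UGT39C1, chosen for strain differences and called lower in MO204 than in DMMMSU119. DMMMSU-0 was far above the next library for GSTs1 (314 CPM, next 36.3), Ugt3 (17.4, next 5.53) and Cyp6ae2 (6.17, next 0.246). This is the library with the highest fat body and muscle marker sums, whose part was not tested. MO204-4 was far above the next library for Cyp339a1 (23.6 CPM, next 0) and CYP49A1 (2.74, next 0.28), and DMMMSU-4 for UGT39C1 (12.5, next 3.92). DMMMSU-2 was below the next library for Ugt2 (1155 CPM, next 1721), on 4688 counts.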

How the results depend on the processing

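Counts of called genes changed with these settings. LAT51 against MO204 had 4 calls, and 2 with no low-count filter, 1 with at least 10 counts over the 9 libraries and 1 with a replicate block. It had 0 to 5 with each library left out, and 5 on the 6 LAT51 and MO204 libraries alone, an alternative chosen after seeing the data. MO204 against DMMMSU119 had 15 calls, 9 with a replicate block and 9 to 21 with each library left out (9 without MO204-1). LAT51 against DMMMSU119 had 16 calls, 14 to 18 with each library left out and 11 with a replicate block. CAR against TCMO had 1 call, 0 with no filter, with at least 10 counts, with limma or with a replicate block, 7 with DESeq2, 8 with 1 mean per strain and 0 to 2 with each library left out. Expressed genes numbered 40, 23 at 5 CPM, and 34 to 40 with each library left out. The share of all tested genes called was not set beside these counts for each setting. The cause of these changes was not tested.

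With library size alone, LAT51 against DMMMSU119 turned to 0.17 for GSTz2 and 0.01 for GSTd3. Of 614 values of the 36 calls under other settings, 474 kept direction and call and 138 kept direction only. A looser low-count filter (none, or at least 10 counts) ended the calls of Cyp315a1, GSTd3, GSTz2 and UGT41A1 in LAT51 against DMMMSU119, of GSTe6 and UGT39C1 in MO204 against DMMMSU119, of CYP367A1 and Cyp6ab5 in LAT51 against MO204, and of UGT48C1 by site. With at least 10 counts the LAT51 against MO204 call of UGT48C1 was lost too (adjusted p = 0.12). UGT33K1, UGT40A1 and UGT41A2 stayed called against DMMMSU119 in both strains under every alternative run. Replicate numbers did not pair libraries: same-numbered libraries came from different larvae, and their deviations correlated at -0.176 to 0.269, so the block is a check only. Genes under 10 counts per library were not resolved.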
